A study of Mus musculus with 4 samples.

Results

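The receptors for the colony-stimulating factors, together with Csf1, the gene of M-CSF, were followed as 9 genes chosen by symbol: Csf1r, Csf1, Csf2ra, Csf2rb, Csf2rb2, Il3ra, Csf3r, Kit and Flt3. Each was found in 1 row of the deposited tables, which hold 22700 rows, and all 9 reached the level minimum of 20 normalised reads in at least 1 library, as 13642 rows did. RNA was measured in bone marrow cells from 12-week-old male mice on the BKS.Cg background, kept in culture with M-CSF (10 ng/ml) or GM-CSF (20 ng/ml) over 7 to 8 days. The diabetic mice were db/db, homozygous for a mutation of the leptin receptor gene Lepr, and the control mice were their db/+ littermates, which carry 1 copy of the same allele. The design crossed genotype with culture and gave 4 libraries, 1 per group, so a difference between a pair of libraries had no replicate check. The sources used here do not say whether a library came from 1 animal or from several.

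M-CSF binds CSF1R, a receptor tyrosine kinase that carries survival, growth and macrophage differentiation signals, and KIT and FLT3 are kinases of the same class, which bind stem cell factor and FLT3 ligand on progenitors. The GM-CSF and IL-3 receptors pair a ligand-specific alpha chain, CSF2RA or IL3RA, with a shared beta chain encoded by Csf2rb, which signals through JAK2 and STAT5. Mice carry an additional copy, Csf2rb2, whose product serves the IL-3 receptor. CSF3R, the G-CSF receptor, is best known on neutrophils and their precursors.

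Values are normalised reads, meaning counts of reads after division by the size factor of the library. Reads recovered from these values and summed over all rows came to 25603389, 27590722, 27216114 and 28622705. The order is db/+ M-CSF, db/db M-CSF, db/+ GM-CSF and db/db GM-CSF. These sums count reads in gene rows and not all reads sequenced. The 9 genes took 0.582%, 0.528%, 0.368% and 0.366% of the recovered reads. Ratios carry exact conditional binomial 95% intervals on read pairs. These cover counting error only, and neither differences between replicate cultures nor the choice of scaling. PCR copies are not independent molecules, so even the counting error may be understated. Culture and genotype effects over all 4 libraries are log2 folds of the normalised reads + 5 from limma, with Benjamini-Hochberg adjusted p-values over all 13642 genes and a threshold of 0.05. In that additive model the error comes from 1 residual degree of freedom, moderated across genes, so the libraries of the opposite genotypes stand in for replicates of a culture. Of 15 macrophage markers 14 reached the minimum, of which 10 fell in GM-CSF, 2 rose and 2 did not pass. The F4/80 gene Emr1 was at 98662 and 97863 in db/+ and db/db M-CSF and at 11230.3 and 11449.7 in GM-CSF. The lysosomal marker Cd68 was at 15996.5 and 11645 in M-CSF and at 24556 and 26213 in GM-CSF. Lepr itself was at 6.7 and 21.8 in M-CSF and at 49.4 and 60.3 in GM-CSF, and since the db mutation acts on splicing, this summed level is no check of genotype. In RNA from whole cultures, fewer cells of a type and less RNA per cell cannot be told apart.

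The pair of beta chain genes is so alike that their reads need a look at the sequences first. Over 2628 aligned coding bases of the reference transcripts (GENCODE, build GRCm38, C57BL/6J) Csf2rb and Csf2rb2 differed at 125 bases and were 95.2% identical. They lie on chromosome 15 on opposite strands. In the most different ungapped window of 100 coding bases inside 1 exon, 16 bases differed. It stands at chr15:78338887-78338986 on the plus strand in Csf2rb and at chr15:78294345-78294444 on the minus strand in Csf2rb2, and is printed 5′ to 3′ with the differing bases in capitals, since these are the letters by which a read can be assigned.
Csf2rb: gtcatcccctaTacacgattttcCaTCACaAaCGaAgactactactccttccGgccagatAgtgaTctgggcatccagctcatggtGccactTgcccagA
Csf2rb2: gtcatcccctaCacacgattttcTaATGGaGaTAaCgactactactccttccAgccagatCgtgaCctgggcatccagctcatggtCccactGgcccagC
Other windows held 0 differences, and the longest identical run was 242 bases. One such window, at chr15:78348577-78348676 (plus strand) in Csf2rb and chr15:78284772-78284871 (minus strand) in Csf2rb2, is shown because a read inside it fits both genes.
Both genes: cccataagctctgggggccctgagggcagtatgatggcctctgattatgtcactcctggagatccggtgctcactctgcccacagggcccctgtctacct
Of all windows of 36 bases along the longest coding transcript, 24.9% of those in Csf2rb also occurred in a coding transcript of Csf2rb2. The share was 18.4% at 50 bases and 6.96% at 100 bases. The sources used here give neither the read length nor how the authors treated reads that fit both copies, so the split between both genes is uncertain. Their sum is given as well, and it too would change if such reads were dropped or counted in both.

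**Figure D1:**
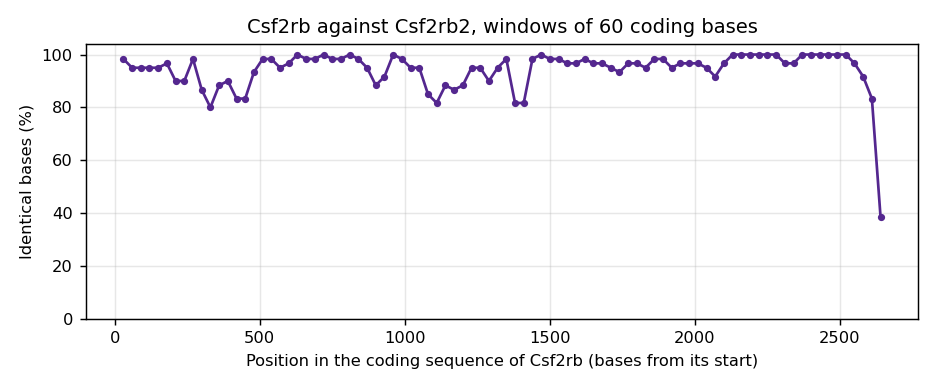
Percentage of identical bases between Csf2rb and Csf2rb2 in windows of 60 bases along the coding sequence of Csf2rb (x axis, bases from its start). Identity stays at 80% or more except in the last window, at 38.3%, and several windows reach 100%.

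GM-CSF cultures held more RNA of the GM-CSF receptor and of Kit, and less of the M-CSF receptor, of the G-CSF receptor and of Flt3. Csf2rb, Csf2rb2, Csf2ra, Il3ra and Kit rose and Csf1r, Csf3r and Flt3 fell in GM-CSF over both genotypes, 8 of the 9 genes, while Csf1 did not pass the test. Across all genes 57.1% passed it (29.8% higher and 27.3% lower in GM-CSF), so a call alone does not set these genes apart. In edgeR, where 56.8% of all genes passed, the calls for the 9 were the same 8. With a fold of at least 2 required as well, 7 of the 9 passed in limma, against 26.1% of all genes. In db/+, 3 were at least 2-fold higher and 3 lower in GM-CSF, against 12% and 15.7% of all genes (27.6% either way). In db/db, 4 were higher and 3 lower, against 11.3% and 15.8% (27.1% either way). Csf2rb, Csf2rb2 and Kit were 2-fold higher in both genotypes, as 9.9% of all genes were, and Csf1r, Csf3r and Flt3 2-fold lower, as 13.2% were. The median log2 fold of the 9 was 0.30 in db/+ and 0.86 in db/db, next to 0.03 and 0.01 over all genes.

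**Figure D2:**
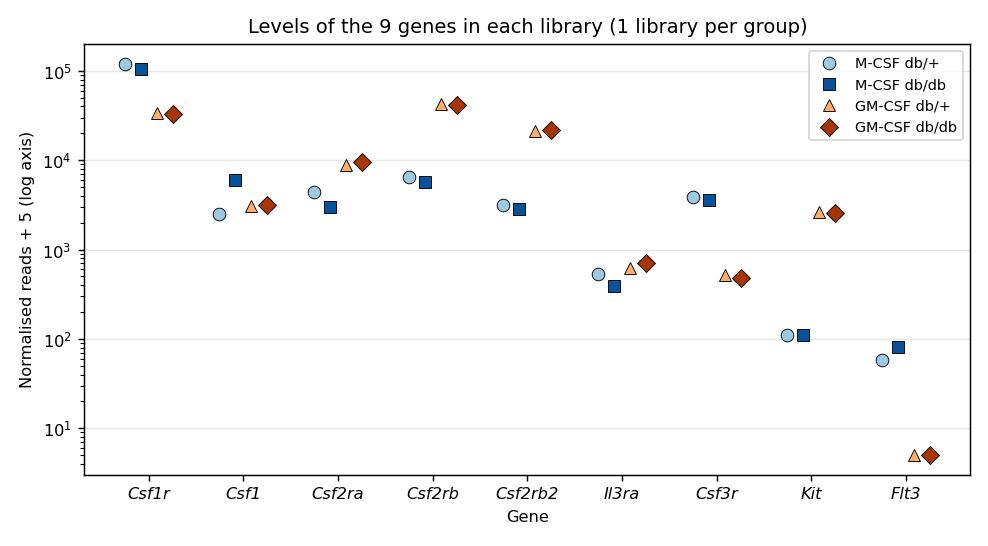
Level of each of the 9 genes (x axis) as normalised reads + 5 on a log axis, with 1 point per library. The M-CSF and GM-CSF points are far apart for Csf1r, Csf2rb, Csf2rb2, Csf3r and Kit, and the only wide gap between genotypes is that of Csf1 in M-CSF, at 2485 and 6065 reads; Flt3 is at 0 reads in GM-CSF and so sits at 5.

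In M-CSF, Csf1r had 120627 (db/+) and 105159 (db/db) normalised reads, and in GM-CSF 33549.6 and 33103. Both M-CSF libraries were above both GM-CSF libraries. The GM-CSF level was 0.278 times the M-CSF level in db/+ (interval 0.273 to 0.283) and 0.315 times in db/db (0.309 to 0.320). Scaled to library totals these ratios were 0.222 and 0.246, outside both intervals. The culture effect was -1.76 on the log2 scale (SE 0.12, limma adjusted p = 1.38e-08). Macrophage markers had a median culture effect of -1.51, with 10 of 14 lower and 2 higher in GM-CSF. Their part in the Csf1r difference was not tested.

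Csf2ra, the alpha chain that binds GM-CSF, was at 4374 and 3023 in db/+ and db/db M-CSF and at 8744 and 9425 in GM-CSF. Its GM-CSF level was 2.00 times the M-CSF level in db/+ (1.90 to 2.11) and 3.12 times in db/db (2.95 to 3.30). Scaled to library totals the Csf2ra ratios were 1.59 and 2.43, outside both intervals. The culture effect was 1.32 (SE 0.12, limma adjusted p = 2.34e-07). Csf2rb, the shared beta chain, stood at 6448 and 5639 in M-CSF and at 42046 and 41581 in GM-CSF, 6.52 times higher in db/+ (6.29 to 6.77) and 7.37 times in db/db (7.10 to 7.66), an effect of 2.79 (SE 0.09, limma adjusted p = 3.63e-12). Csf2rb2 moved alike, from 3109 and 2850.2 to 21198 and 21717, an effect of 2.85 (SE 0.09, limma adjusted p = 1.35e-12). Csf2rb took 67.5%, 66.4%, 66.5% and 65.7% of the reads of both copies in the 4 libraries, with exact binomial intervals between 65.1% and 68.8%, a narrow range beside the rise of the sum. The sum over both copies was 9557 and 8489 in M-CSF and 63243 and 63298 in GM-CSF, ratios of 6.62 (6.42 to 6.82) and 7.46 (7.23 to 7.69). This sum does not depend on how reads were shared out between the copies, provided that each read was counted once.

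Il3ra, the IL-3 alpha chain, showed the smallest of these changes. It was at 521 and 385 in M-CSF and at 625 and 704 in GM-CSF, with ratios of 1.20 in db/+ (1.01 to 1.42) and 1.83 in db/db (1.54 to 2.18). Its culture effect was 0.56 (SE 0.15, limma adjusted p = 0.00495), but scaling to library totals gave 0.22 (adjusted p = 0.214, in a range of 9.41e-04 to 0.214 over 9 alternatives) and turned the db/+ ratio to 0.956. Without a variance trend its effect was the same, 0.56, with an adjusted p of 0.113. The size of the Il3ra effect thus moved with the scaling and its call with both choices, while the adjusted p of Csf2rb was at most 0.00381 over the same alternatives.

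Csf3r was at 3901 and 3571 in M-CSF and at 514 and 473 in GM-CSF. The M-CSF level was 7.59 times the GM-CSF level in db/+ (6.62 to 8.74) and 7.54 times in db/db (6.56 to 8.71), an effect of -2.91 (SE 0.09, limma adjusted p = 2.99e-12). Neutrophil markers were lower in GM-CSF as well: of 14 found, 13 fell, among them Mpo, the myeloperoxidase of granule precursors, from 1448 and 1373 to 1.1 and 0, and the calgranulin gene S100a9 from 5750 and 6113 to 140.2 and 129. The exception was Mmp8, a neutrophil collagenase, which rose from 1283 and 1272 to 22757 and 24136. The summed level of the 14 markers ranged from 18888 to 19476 in M-CSF and from 23649 to 25182 in GM-CSF, most of it Mmp8 in the latter. The part of these cells in the Csf3r difference was not tested.

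Kit showed the highest ratio of the 9. It was at 105.6 and 106.3 in M-CSF, from 111 and 122 reads, and at 2614 and 2540.0 in GM-CSF. The ratio was 24.8 in db/+ (18.9 to 33.0) and 23.9 in db/db (18.5 to 31.4), and the culture effect 4.54 (SE 0.13, limma adjusted p = 5.58e-13). Mast cells keep KIT at their surface, and of 10 mast cell and basophil markers 4 reached the minimum, of which 3 fell and 1 rose in GM-CSF. The one that rose with Kit was Cd200r3, a receptor of basophils and mast cells, from 9.5 and 7.0 to 161.5 and 160.3 (effect 3.65, SE 0.34, limma adjusted p = 3.22e-07). In GM-CSF the IgE receptor genes Fcer1a and Ms4a2 were at 0 and 0 and at 0 and 1.1, and carboxypeptidase Cpa3 at 3.4 and 7.5, against 39.9 and 46.2 in M-CSF. Of the 10 markers, 6 and 5 were at 0 in db/+ and db/db GM-CSF, and their sum was 216 in both M-CSF libraries and 173 and 178 in GM-CSF, nearly all of it Cd200r3. Of 8 progenitor markers that reached the minimum, 5 fell in GM-CSF and 0 rose. The sum of all 10 progenitor markers, with those under the minimum, was 1386 and 1256 in M-CSF and 261 and 343 in GM-CSF. Cd34 was at 53.3 and 52.3, and at 32.5 and 58.1, and Myb at 96.1 and 106.3, and at 10.1 and 5.4. The part of these cells in the Kit difference was not tested.

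The M-CSF libraries gave Flt3 levels of 53.3 (db/+, 56 reads) and 76.7 (db/db, 88 reads), and both GM-CSF libraries had 0 reads. With GM-CSF set to the floor of 3 read pairs per library, the level of Flt3 was 7.92-fold lower for db/+ and 11.9-fold lower for db/db. These folds leave out the counting error of the M-CSF reads, so they are no strict bounds. Flt3 passed the test (limma adjusted p = 1.07e-05), and its fitted fold depends on the added 5 reads and is no bound either. FLT3 marks dendritic progenitors, and of 14 dendritic cell markers 9 rose in GM-CSF, 3 fell and 2 did not pass (6 rose and 4 fell with library totals). The plasmacytoid marker Siglech fell from 342 and 299 to 6.7 and 9.7, while Itgax, the CD11c gene, rose from 775 and 921 to 56042 and 56259. The part of these cells in the Flt3 difference was not tested.

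Levels can be set against each other only per transcript length, here as normalised reads per kb of the longest coding transcript in GENCODE (GRCm38), a later build than those the authors name. In M-CSF, Csf1r led with 25659.8 (db/+) and 22369.5 (db/db), and made up 81.8% and 82.9% of the summed per-kb level of the 8 receptor genes. Csf2ra followed at 2366 and 1635, then Csf2rb at 1316 and 1151 and Csf3r at 1121 and 1026. Csf2rb2 was at 656 and 601, Il3ra at 225 and 166, and Kit at 20.1 and 20.3. The levels of Kit overlapped those of Flt3, at 14.6 and 21.0, so these neighbours have no order. The ligand gene Csf1, at 595 and 1452, overlapped Csf2rb, Csf3r and Csf2rb2.

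In GM-CSF the order changed. Csf2rb led at 8581 and 8486 per kb, above Csf1r at 7137 and 7042. Csf2ra at 4729 and 5097 and Csf2rb2 at 4472 and 4582 came next, and no pair of neighbours overlapped between the libraries. Csf1 was at 735 and 751, Kit at 499 and 485, Il3ra at 269.8 and 304, and Csf3r at 148 and 136. Csf1r made up 27.6% and 26.9% of the receptor sum. Both beta chains together were at 0.0768 and 0.0783 times the per-kb level of Csf1r in M-CSF, and at 1.83 and 1.86 times in GM-CSF. Relative to Csf2ra they were at 0.833 and 1.07 times in M-CSF and at 2.76 and 2.56 times in GM-CSF. These ratios, and the places of Csf2rb and Csf2rb2 in the order of either culture, depend on how reads that fit both copies were counted, which is not known.

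**Figure D3:**
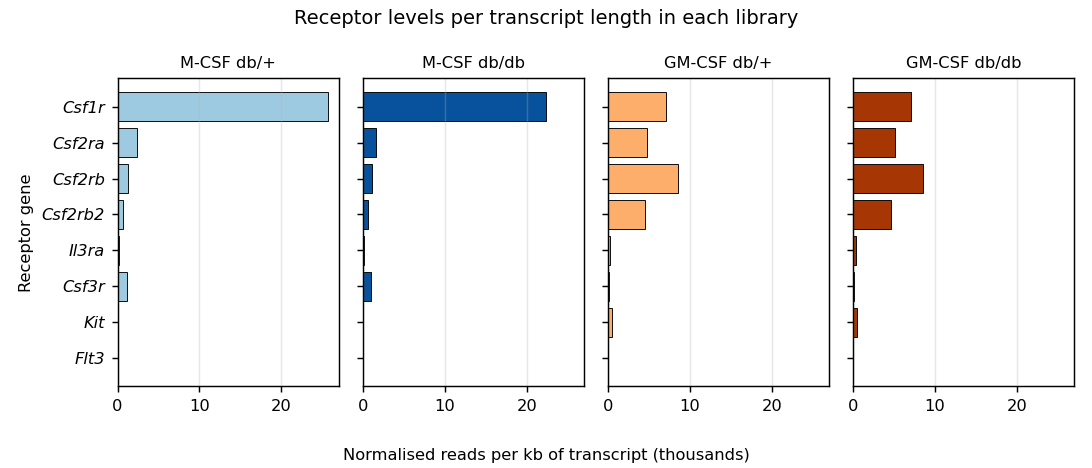
Normalised reads per kb of the longest coding transcript (x axis, in units given on the axis), of the 8 receptor genes in each library (1 panel per library, no replicates). Csf1r is the longest bar in both M-CSF panels, and Csf2rb is slightly longer than Csf1r in both GM-CSF panels.

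Between genotypes in M-CSF, Csf1 was higher in the db/db library while most receptors were slightly lower. Of the 9 genes, Csf1 alone was at least 2-fold apart, against 5.83% of all genes (5.05% higher and 0.777% lower in db/db). The median log2 fold of the 9 was -0.13, next to 0.02 over all genes. Of the 9, 6 were lower in db/db, as were 6256 of all 13642 genes. In M-CSF, Csf1 had 2485 normalised reads (db/+) and 6065 (db/db), and the ratio was 2.44 (2.29 to 2.60). In GM-CSF it had 3071 and 3135, and the ratio was 1.02 (0.948 to 1.10). Only the db/db M-CSF library was high, with the other 3 within 2485 to 3135. Csf1 therefore lay 1.24 times higher in GM-CSF than in M-CSF in db/+ (1.14 to 1.33) and 0.517 times in db/db (0.486 to 0.550). Scaled to library totals the db/+ ratio turned to 0.986 and the culture effect, -0.32 with an adjusted p of 0.158 in limma, passed at -0.66 (adjusted p = 0.0163, range 0.0163 to 0.525 over 9 alternatives).

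Marrow stromal cells make M-CSF, and stromal markers were high in the same library. In db/db M-CSF, 16 of the 20 above the minimum exceeded their db/+ level by 2-fold or more and 0 fell short of it by as much. The sum of all 21 was 53425 (db/+) and 115956 (db/db). The collagen gene Col1a2 was at 8292 and 22962, and Cxcl12, a chemokine of marrow stroma, at 923 and 2829. In GM-CSF the same markers summed to 2025 and 2122, with Col1a2 at 13.5 and 21.5, and Csf1 was at 3071 and 3135. The part of stromal cells in the Csf1 levels of either culture, or in the difference in M-CSF, was not tested. Over both cultures Csf1 had a genotype effect of 0.66 (SE 0.19), which did not pass in limma (adjusted p = 0.888) or edgeR (adjusted p = 0.272). In these additive fits a genotype difference confined to 1 culture is averaged over both, and the disagreement counts as error. They are therefore no test of the difference in M-CSF alone. In limma a single gene (0.00733% of those tested) passed for genotype, and 0 of the 9. It was Sparc, a matrix protein gene among the stromal markers, named after its values were seen, at 4400.0 and 13327 in M-CSF and at 4.5 and 16.1 in GM-CSF. An unadjusted p under 0.05 in limma was reached by 603 genes, Csf1 among them (0.00357). In edgeR 103 passed (0.755%), and 0 of the 9.

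Among the receptors whose counting interval excluded 1, the GM-CSF and IL-3 alpha chains had the largest genotype differences in M-CSF. For Csf2ra, the db/db level of 3023 was 0.691 times the db/+ level of 4374 (0.649 to 0.736). For Il3ra, 385 was 0.739 times 521 (0.616 to 0.885). Csf1r had a ratio of 0.872 (0.862 to 0.882), Csf2rb 0.874 (0.833 to 0.918), Csf2rb2 0.917 (0.855 to 0.982) and Csf3r 0.915 (0.861 to 0.974). For these 6 receptors the interval lay below 1, which counts reads and not cultures. The share of all genes with an interval that excludes 1 was not computed, so this count does not set the receptors apart. Kit at a ratio of 1.01 (0.688 to 1.48) and Flt3 at 1.44 (0.876 to 2.40) had intervals that include 1, on at most 122 reads a library. General macrophage markers went the same way: 11 of the 14 above the minimum were lower in db/db M-CSF, 0 of them by 2-fold, and the median log2 fold was -0.08. Their part in the receptor differences was not tested.

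In GM-CSF the genotypes were close. Of the 9, 0 were at least 2-fold apart, against 1.06% of all genes (0.586% higher and 0.476% lower in db/db). Csf1r had a ratio of 0.987 (0.965 to 1.01), Csf2rb 0.989 (0.969 to 1.01) and Csf2rb2 1.02 (0.996 to 1.05). Csf2ra, at 1.08 (1.03 to 1.13), was the only gene of the 9 whose interval excluded 1. Il3ra stood at 1.13 (0.957 to 1.33), Csf3r at 0.922 (0.762 to 1.11) and Kit at 0.972 (0.895 to 1.05). Csf3r rested on 458 and 440 reads, and a difference within its interval was not detectable at this depth. Flt3 had 0 reads in both libraries, which gives no ratio.

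**Figure D4:**
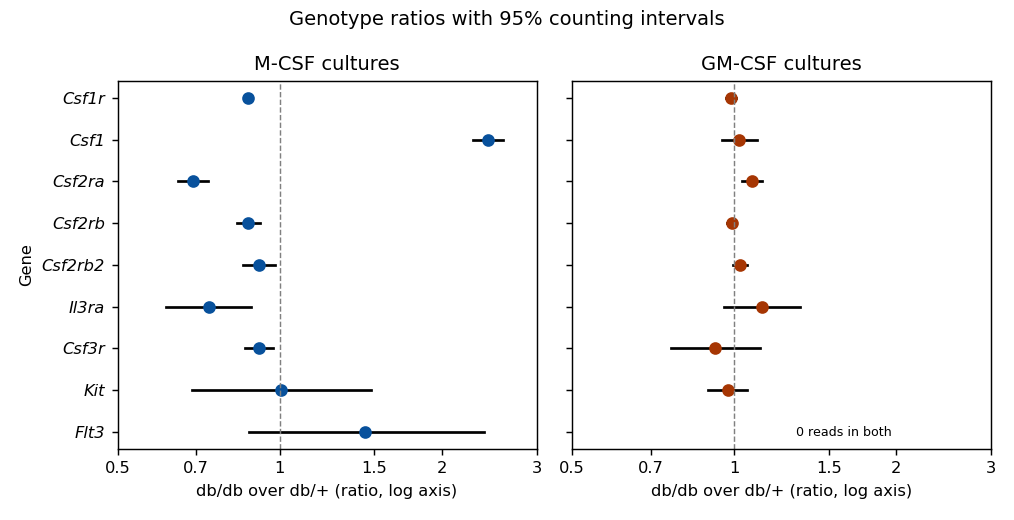
Ratio of the db/db to the db/+ level (x axis, log scale) for each gene in M-CSF (left) and GM-CSF (right), with lines for 95% counting intervals. Csf1 stands at 2.44 on the left and at 1.02 on the right, and Csf2ra moves from 0.691 to 1.08.

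The other ligands were scarce. Of 7 genes, Kitl, which encodes stem cell factor, and Flt3l reached the minimum. Kitl fell from 542 and 470.5 in M-CSF to 169 and 163 in GM-CSF, an effect of -1.58 (SE 0.16, limma adjusted p = 8.87e-07), opposite in direction to its receptor gene Kit. Flt3l was at 130.3 and 131 and at 99.8 and 88.2 and did not pass (limma adjusted p = 0.114), though it did with library totals. Il34, the gene of the alternative CSF1R ligand, was at 11.4 and 16.5 in M-CSF and at 0 and 3.2 in GM-CSF. The genes of GM-CSF, G-CSF, IL-3 and IL-5 (Csf2, Csf3, Il3 and Il5) had at most 5.7 normalised reads in any library and 0 in both GM-CSF libraries. RNA of these 4 genes was thus not detectable in GM-CSF at this depth.

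Among 10 related receptors, 9 reached the minimum, of which 8 fell and 1, Lepr, rose in GM-CSF. The lower ones included receptors of the IL-6 family: Il6ra, from 3727 and 3301 to 1274 and 1278 (effect -1.45, SE 0.09), Lifr, from 1420.1 and 1534 to 79.6 and 73.2 (-4.19, SE 0.15), and the oncostatin M receptor gene Osmr, from 159 and 398 to 0 and 1.1. Pdgfrb, a class mate of Csf1r typical of stromal cells, was at 365 and 971 in M-CSF and at 22.4 and 25.8 in GM-CSF. Between genotypes in M-CSF, Pdgfrb had a ratio of 2.66 (2.25 to 3.15) and Osmr 2.51 (1.94 to 3.26).

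Of 24 receptor-proximal signalling genes, 9 rose, 8 fell and 7 did not pass, with a median of -0.03. Src family kinases differed in direction: Fgr rose from 369 and 288 to 2213 and 2222 (effect 2.75, SE 0.12) and Src from 198 and 357 to 1312 and 1277 (2.26, SE 0.17), while Fyn fell from 931 and 1047 to 353 and 308 (-1.57, SE 0.13). Pik3ap1, an adaptor of phosphoinositide 3-kinase, fell from 15848 and 13968 to 6449 and 6355 (-1.22, SE 0.09). With library totals 5 of the 24 rose and 14 fell. Between genotypes in M-CSF, Src had a ratio of 1.81 (1.42 to 2.31) and Fgr 0.779 (0.629 to 0.964).

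Feedback inhibitors held the widest changes of the signalling genes. Of 14 negative regulators 6 rose and 8 fell (4 and 8 with library totals). Cish, a STAT5 target that restrains the beta chain receptors, rose from 26.6 and 37.5 to 1033 and 1140.3, an effect of 4.89 (SE 0.19, limma adjusted p = 2.18e-11). Socs2 rose from 66.6 and 89.7 to 1461 and 1492 (4.17, SE 0.16). Socs3 rose less, from 343 and 480.1 to 907 and 899 (1.14, SE 0.14), and in M-CSF it was 1.40 times higher in db/db (1.15 to 1.70). Spred1, an inhibitor of Ras signalling, fell from 2511 and 2829 to 1002 and 921 (-1.47, SE 0.10), and Sh2b3, the adaptor LNK, from 1906 and 1695 to 811 and 772 (-1.18, SE 0.10).

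Shedding of CSF1R and M-CSF from the cell surface runs through the protease ADAM17. Adam17 rose from 12923 and 11898 to 17181 and 17169.7 (effect 0.47, SE 0.09) and its partner Rhbdf2 from 2104 and 1737 to 2561 and 2572 (0.42, SE 0.09), but neither passed with library totals, at 0.13 and 0.08. Rhbdf1 fell from 209 and 297 to 11.2 and 14.0. Timp3, an ADAM17 inhibitor made by stromal cells, fell from 3565 and 12275 to 33.7 and 60.3, and in M-CSF it was 3.44 times higher in db/db (3.27 to 3.63).

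Of 15 transcription factors with known roles at these receptor genes, 3 rose, 5 fell and 7 did not pass (2 rose and 8 fell with library totals). Cebpb rose from 1273 and 1185 to 7152 and 6785 (effect 2.50, SE 0.08), and Tfec, a relative of MITF, from 766 and 793 to 2724 and 2751 (1.81, SE 0.09). Bcl6 fell from 1801 and 1603 to 581 and 523 (-1.62, SE 0.10) and Cebpd from 1344 and 1374 to 611 and 537 (-1.24, SE 0.11). Sfpi1, the older symbol of the PU.1 gene and named here after its values were seen, was at 7069 and 6424 in M-CSF and at 6889 and 7353 in GM-CSF and did not pass (0.08, SE 0.09). With library totals it fell by 0.26. Irf8 had a genotype ratio in M-CSF of 0.838 (0.797 to 0.882) and Ets2 of 1.15 (1.001 to 1.33).

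**Figure D5:**
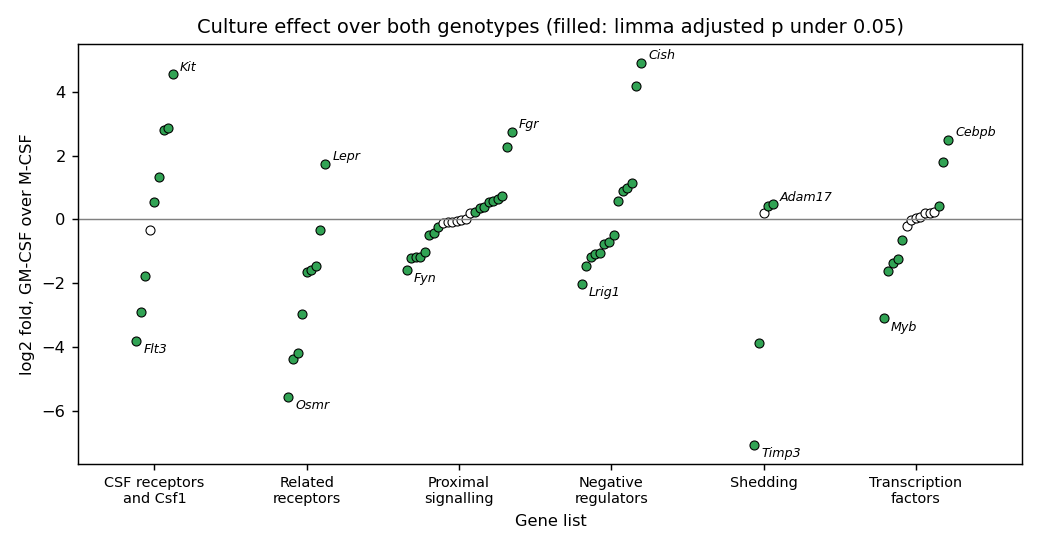
Culture effect (log2 fold of GM-CSF over M-CSF over both genotypes, y axis) of each gene in 6 lists, with filled points for genes that passed in limma. Cish at 4.89 and Kit at 4.54 stand highest, Timp3 at -7.04 lowest, and scaling to library totals moves the median of all genes from 0.02 to -0.32.

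The promoters of the members that moved at least 2-fold with the culture are shown where the table holds them: Csf2ra, Csf2rb2 and Kit, which rose, and Csf3r and Flt3, which fell. RefSeq windows (build GRCm38.p6) matched 7 of the 9 genes. Each line gives the 250 bases before the transcript start, 5′ to 3′ along the gene. Capitals mark matches, on either strand, to GAGGAA (the core bound by PU.1 and other ETS factors), TTGNNNNAA (C/EBP), TTCNNNGAA (STAT), AGATAA (bound by factors of the GATA family) or TGTGGT (RUNX). The windows are chr19:61228419-61228668 (minus strand) for Csf2ra, chr15:78305722-78305971 (minus strand) for Csf2rb2, chr5:75574737-75574986 (plus strand) for Kit, chr4:126024409-126024658 (plus strand) for Csf3r and chr5:147400490-147400739 (minus strand) for Flt3.
Csf2ra: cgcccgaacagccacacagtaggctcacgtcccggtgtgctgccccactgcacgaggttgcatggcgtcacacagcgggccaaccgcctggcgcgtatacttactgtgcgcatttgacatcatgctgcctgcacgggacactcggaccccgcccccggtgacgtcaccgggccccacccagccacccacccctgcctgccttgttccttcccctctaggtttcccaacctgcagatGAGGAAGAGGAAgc
Csf2rb2: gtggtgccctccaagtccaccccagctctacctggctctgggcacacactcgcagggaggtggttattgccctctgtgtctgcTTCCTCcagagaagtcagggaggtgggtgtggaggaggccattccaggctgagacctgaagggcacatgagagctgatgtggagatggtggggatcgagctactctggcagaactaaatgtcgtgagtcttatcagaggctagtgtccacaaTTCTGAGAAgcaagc
Kit: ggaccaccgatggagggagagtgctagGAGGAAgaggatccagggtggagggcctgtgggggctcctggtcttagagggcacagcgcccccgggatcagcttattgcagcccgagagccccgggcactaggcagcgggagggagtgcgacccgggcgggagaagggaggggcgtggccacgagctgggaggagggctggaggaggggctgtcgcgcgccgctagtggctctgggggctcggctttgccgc
Csf3r: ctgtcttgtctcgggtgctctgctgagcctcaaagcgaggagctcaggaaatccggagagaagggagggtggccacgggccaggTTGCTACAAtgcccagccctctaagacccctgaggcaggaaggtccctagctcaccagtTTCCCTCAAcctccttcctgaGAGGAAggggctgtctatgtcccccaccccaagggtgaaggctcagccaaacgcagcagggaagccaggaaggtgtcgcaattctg
Flt3: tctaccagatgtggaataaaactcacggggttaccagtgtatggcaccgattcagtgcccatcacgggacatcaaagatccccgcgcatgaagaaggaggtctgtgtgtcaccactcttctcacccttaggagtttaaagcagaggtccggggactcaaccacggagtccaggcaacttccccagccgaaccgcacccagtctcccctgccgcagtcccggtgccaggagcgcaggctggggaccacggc
GAGGAA occurred 2 times in Csf2ra, end to end next to the start, once each in Csf2rb2, Kit and Csf3r, and 0 times in Flt3, and 23.3% of all 32851 promoter windows hold it. TTCNNNGAA occurred once, in Csf2rb2 close to the start, against 7.02% of windows, and TTGNNNNAA occurred 2 times in Csf3r, against 31.5%. AGATAA (9.99% of windows) and TGTGGT (14.0%) had no match in these windows, and the Flt3 window matched none of the 5 motifs. A match describes letters and is no evidence of binding.

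The genes whose profiles lay nearest were ranked by the Euclidean distance between log2 profiles centred over the 4 libraries, among 10153 genes with 200 or more normalised reads in a library. For Csf1 these were Myh10 (distance 0.10), Nxn (0.17) and Rras2 (0.18), each high in db/db M-CSF alone. For Kit they were Tnfrsf26 (0.06), Dok7 (0.09) and Stac2 (0.13). Dok7 was at 4.8 and 5.2 in M-CSF, below the floor of 3 read pairs, and at 249 and 233.5 in GM-CSF. Its distance thus depends on the added 5 reads. Sowahc was nearest to both Csf2rb (0.04) and Csf2rb2 (0.05), followed by Nfe2 and Gpnmb for the former and Prokr1 and Nckap5l for the latter. Csf2ra had Itgb7 (0.06), Psen2 and Fkbp2, and Il3ra had Tfeb (0.02), Mphosph6 and Fkbp1b. Csf1r had Hmga2-ps1, Srgap2 and Neurl3 (0.05 each), and Csf3r had Adap2 (0.08), Gprc5c and Wwp1. With 4 libraries, many genes share a profile by its coarse shape alone, and these names describe likeness of values in these libraries.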

How the data were processed

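Ribosome-depleted total RNA was sequenced in read pairs, per the labels' protocols. The authors deposited 1 normalised signal per gene and library, that is read counts divided by a TMM size factor (by the file names) and rounded to 1 decimal. TopHat 1.2.0, edgeR and the builds mm8 and mm9 are named, with no roles, per the submitters' processing notes. The counter, annotation, strandedness and filters: not given in the sources used here. Whole reads were recovered by dividing by the step of 1 read (0.951, 0.871, 1.12 and 1.08 in the order of the report). With a tolerance of 0.1, 100% of low values came out whole and 99.893% or more of all values did. Even counts were in excess at 1 to 20 reads (52.6% to 56.3%), so intervals used reads divided by 2 as read pairs; 3 pairs are 5.23 to 6.73 normalised reads.

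The design allowed for counts or a normalised unit. The files hold the latter, so limma 3.58.1 (lmFit, eBayes with a variance trend, prior degrees of freedom 12.87, two-sided) on log2(value + 5) was fitted to genotype plus culture, after tests on simulated data. edgeR 4.0.16 on the recovered reads (7746 genes passed for culture, 103 for genotype) and DESeq2 1.42.0 size factors were alternatives. Pairwise calls are at least 2-fold on log2(value + 5). Intervals used scipy 1.17.1. The labels do not say that libraries came from separate animals. Members and lists were chosen with earlier results of these data known. Named genes are the 9 members, all other ligands, up to 4 genes per pathway list by culture effect and 2 by genotype fold in M-CSF among those at 200 or more reads, and the 3 nearest profiles per member; a few genes outside it serve as marker values. Lymphoid (12 genes) and eosinophil (8) marker lists were also summed: 287, 268, 94.3 and 88.3, and 371, 375, 5144 and 5440.3 normalised reads; 1 and 4 of their genes rose in GM-CSF and 3 and 2 fell. Unused sample columns: 0.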

Additional observations from a re-analysis of the deposited data

Results flagged for a closer look

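Csf2ra moved in opposite directions between genotypes in the cultures: db/db over db/+ was 0.691 in M-CSF and 1.08 in GM-CSF, and both counting intervals excluded 1. The difference between these ratios was not tested, because each rests on 1 library per group. How many of all genes show such opposite ratios was not computed.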

How the results depend on the processing

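The culture effect kept its direction and its side of the threshold for 7 of the 9 genes in every alternative that could be computed; the exceptions were Il3ra, which lost its call with library totals (0.22) and without a variance trend (still 0.56, adjusted p = 0.113), and Csf1, which gained one with library totals (-0.66). The level minimum of 200 leaves out Flt3. Scaling to library totals shifted the median culture log2 fold of all genes from 0.02 to -0.32. It changed the split of called genes from 4062 higher and 3725 lower to 2287 and 6382. It also reversed the db/+ culture ratios of Csf1 (0.986) and Il3ra (0.956). The culture ratios of Csf1r, Csf2ra, Csf2rb, Csf2rb2 and Csf3r left their counting intervals in both genotypes. That of Csf2rb, for example, went to 5.20 in db/+ and 5.76 in db/db. No genotype call was made for any of the 9 in any alternative. Without the culture term, the culture difference entered the error (genotype SE of 1.51 for Csf2rb). That alternative could thus hardly give a call and is no check of the genotype result. Over all genes, the genotype effect had 1 call, with 2 at a pseudocount of 1, 3 at a level minimum of 200, 103 in edgeR, and 0 with a pseudocount of 20, library totals, no variance trend or no culture term (629, 535, 617 and 1 genes at an unadjusted p under 0.05 in limma). Counts at least 2-fold apart in M-CSF were 795, with 471 at a pseudocount of 20, 1366 without a filter and 334 at a minimum of 200. In GM-CSF they were 145, with 560 and 1 at pseudocounts of 1 and 20, 316 without a filter and 13 at a minimum of 200. Between cultures, a minimum of 200 gave 2318 in db/+ and 2225 in db/db, from 3771 and 3702; the cause was not tested, except that a higher minimum tests fewer genes. The order of genes per kb was the same with 2 other transcript lengths, chosen after seeing the data. Leaving out a library leaves no residual degree of freedom, so no such test was possible. No paired analysis was possible because each group has 1 library; the additive model already compares the cultures within each genotype, and 7740 genes passed for culture without the genotype term, against 7787 with it. Depth limits Kit and Flt3 in M-CSF, with at most 122 reads.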
